A study of Mus musculus with 6 samples.

Results

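The regions described here were the 2944 stretches of 2 kb, called tiles, in which CpG methylation was higher in advanced pluripotent stem cells (ASCs) than in embryonic stem cells (ESCs) by the widest margin. A tile was eligible if it lay on chromosomes 1 to 19, held at most 40 listed CpG sites and had at least 40 observations, an observation being a read at a CpG, in every library. Of 402374 eligible tiles, the 2944 with a mean ASC level at least 65 percentage points above the mean ESC level (0.732%) were taken as members. The choice was therefore made by the ASC and ESC levels themselves (the members were selected on them), and these values are given as a description without a test. Over chromosomes 1 to 19 and X, 445422 tiles had 40 observations in every library, whatever their number of CpG sites.

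Whole-genome bisulfite sequencing had been carried out on 3 kinds of mouse pluripotent cell, with 2 libraries of each. By their labels all were wild type and of the strain 129S2/SvPasCrl, whereas the study's methods describe lines from crosses of 129/sv females with males that carried reporter transgenes on a mixed background. Which of those lines gave the libraries is not stated in the sources used here. The labels give no sex, whereas the study's text calls the cells of its methylation data female. Coverage of chromosome X per CpG was 50.3% and 49.8% of that of autosomes in ASCs, 37.0% and 38.3% in ESCs, with 63.4% and 62.1% in EpiSCs, and that of chromosome Y was at most 0.569%. The number of X copies was not tested, and the tiles of the rule were all autosomal. The medium of the ASCs, lines of blastocyst origin, was N2B27 supplied with a Wnt pathway activator (CHIR99021), leukemia inhibitory factor (LIF), BMP4 and Activin A. The ESCs were naive cells grown in 2i/LIF, a medium that holds a pair of kinase inhibitors and LIF, and the epiblast stem cells (EpiSCs) were primed cells with features of the post-implantation epiblast. The labels name the 3 cell types but neither lines nor media, so that line and culture condition cannot be told apart. Libraries held between 63803799 and 74925271 CpG reads, a mean coverage of 2.96 to 3.46 reads per listed CpG. The labels call the replicates biological without saying whether lines or cultures were replicated, and the spread between them may be partly technical.

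As background, methyl groups are placed on the cytosine of CpG dinucleotides by the DNA methyltransferases, Dnmt3a and Dnmt3b at new sites and Dnmt1 after replication, and are removed by dilution or through oxidation by the Tet enzymes. Inhibition of the Mek and Gsk3 kinases in 2i medium is known to lower methylation across most of the genome of naive ESCs, whereas the epiblast gains methylation at implantation. Gene bodies and intergenic DNA are usually highly methylated in primed and somatic cells, and CpG-rich promoters usually are not.

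The DNA of 5 members is shown because these tiles had the widest margins, over all tiles, among deeply covered tiles or near a gene start. Each line gives the 300 bases of the tile with the most CpG sites, 5′ to 3′ on the plus strand of GRCm38, and capitals mark the CpG dinucleotides. The windows lie in introns of Vti1a at chr19:55444427-55444726, of Frmd4a at chr2:4522001-4522300 and of Ak4 at chr4:101448621-101448920. The last 2 lie beside the starts of 1700025F22Rik at chr19:11158040-11158339 and Dennd6a at chr14:26574904-26575203, and none of the 5 overlapped an annotated exon.
Vti1a: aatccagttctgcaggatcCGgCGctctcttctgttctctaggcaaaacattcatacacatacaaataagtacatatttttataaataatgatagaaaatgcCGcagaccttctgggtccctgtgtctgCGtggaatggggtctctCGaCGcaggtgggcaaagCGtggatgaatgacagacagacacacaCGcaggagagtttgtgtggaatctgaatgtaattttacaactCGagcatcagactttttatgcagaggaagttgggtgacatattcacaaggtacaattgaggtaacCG
Frmd4a: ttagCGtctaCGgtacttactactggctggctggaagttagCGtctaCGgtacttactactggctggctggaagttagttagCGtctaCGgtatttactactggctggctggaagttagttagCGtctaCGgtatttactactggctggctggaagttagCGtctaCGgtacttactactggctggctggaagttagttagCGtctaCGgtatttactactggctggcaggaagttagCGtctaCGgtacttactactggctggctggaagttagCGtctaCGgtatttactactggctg
Ak4: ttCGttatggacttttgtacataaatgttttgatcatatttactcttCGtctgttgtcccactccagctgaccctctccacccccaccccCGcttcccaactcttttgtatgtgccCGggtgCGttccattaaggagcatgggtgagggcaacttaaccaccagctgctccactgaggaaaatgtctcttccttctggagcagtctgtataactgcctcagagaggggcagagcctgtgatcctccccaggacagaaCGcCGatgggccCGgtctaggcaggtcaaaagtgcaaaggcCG
1700025F22Rik: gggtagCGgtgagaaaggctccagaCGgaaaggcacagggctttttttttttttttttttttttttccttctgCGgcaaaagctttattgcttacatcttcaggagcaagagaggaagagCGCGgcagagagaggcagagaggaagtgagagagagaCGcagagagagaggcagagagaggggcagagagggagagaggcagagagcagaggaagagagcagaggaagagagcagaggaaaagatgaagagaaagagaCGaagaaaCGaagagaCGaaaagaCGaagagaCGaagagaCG
Dennd6a: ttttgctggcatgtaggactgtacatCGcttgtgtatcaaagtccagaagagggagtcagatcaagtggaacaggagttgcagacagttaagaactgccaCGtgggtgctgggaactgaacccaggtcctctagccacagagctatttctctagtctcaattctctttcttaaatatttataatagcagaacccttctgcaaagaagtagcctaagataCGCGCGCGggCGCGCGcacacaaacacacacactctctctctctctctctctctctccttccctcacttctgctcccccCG

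Within these windows most reads were unmethylated in ESCs and methylated in ASCs and EpiSCs. In the Ak4 window, which held 9 CpG sites, 37 of 50 observations were methylated in ASC replicate 1 and 31 of 41 in replicate 2. The ESC libraries had 1 of 52 and 0 of 40 there, the latter allowing a level of up to 7.5%, and the EpiSC libraries had 42 of 42 and 48 of 49. In the Vti1a window, with 10 sites, 9 of 14 and 16 of 21 observations were methylated in ASCs, 0 of 15 and 1 of 20 in ESCs, with 29 of 31 and 16 of 16 in EpiSCs. At 15 observations a count of 0 still allows a level of up to 20%, so the Vti1a window alone is a coarse measurement.

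The Frmd4a window is a tandem repeat, in which the 10 bases actactggct occur 8 times. It held 16 CpG sites and 99 of the 197 observations of its tile in ASC replicate 1, with 86 of 99 and 85 of 105 methylated in ASCs, 3 of 100 and 4 of 131 in ESCs, with 79 of 85 and 65 of 70 in EpiSCs. Which copy of the repeat a read came from was not tested. The 1700025F22Rik window had 29 of 37 and 42 of 45 in ASCs, 2 of 19 and 0 of 29 in ESCs, with 18 of 23 and 18 of 19 in EpiSCs. The Dennd6a window had 33 of 35 and 71 of 77 in ASCs, 3 of 42 and 5 of 24 in ESCs, with 45 of 45 and 23 of 27 in EpiSCs. In each of the 5 windows both ESC libraries lay below every ASC and EpiSC library, as the choice of tiles makes likely. How many eligible tiles had this order of libraries was not counted. Over all eligible tiles the median difference from ESCs was 47.4 points for ASCs and 70.2 points for EpiSCs. The percentile 5 of these differences was 21.3 and 52.4 points, so the mean ESC level was the lowest in most eligible tiles too. The ASC and EpiSC libraries overlapped in the 1700025F22Rik and Dennd6a windows.

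Across all members, the median tile level was 81.1% and 81.4% in the ASC libraries, 13.3% and 13.6% in the ESC libraries and 92.5% in both EpiSC libraries. Averaged over replicates, the library medians were 81.2% ± 0.19 for ASCs, 13.5% ± 0.21 for ESCs and 92.5% ± 0.03 for EpiSCs (SD, n = 2 each). Over all eligible tiles they were 69.8% ± 0.12, 20.2% ± 0.22 and 92.3% ± 0 (SD, n = 2 each). Members thus stood above the eligible tiles in ASCs and below them in ESCs, both of which the rule had used, while the EpiSC level, which it had not used, was close to that over all eligible tiles.

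**Figure D1:**
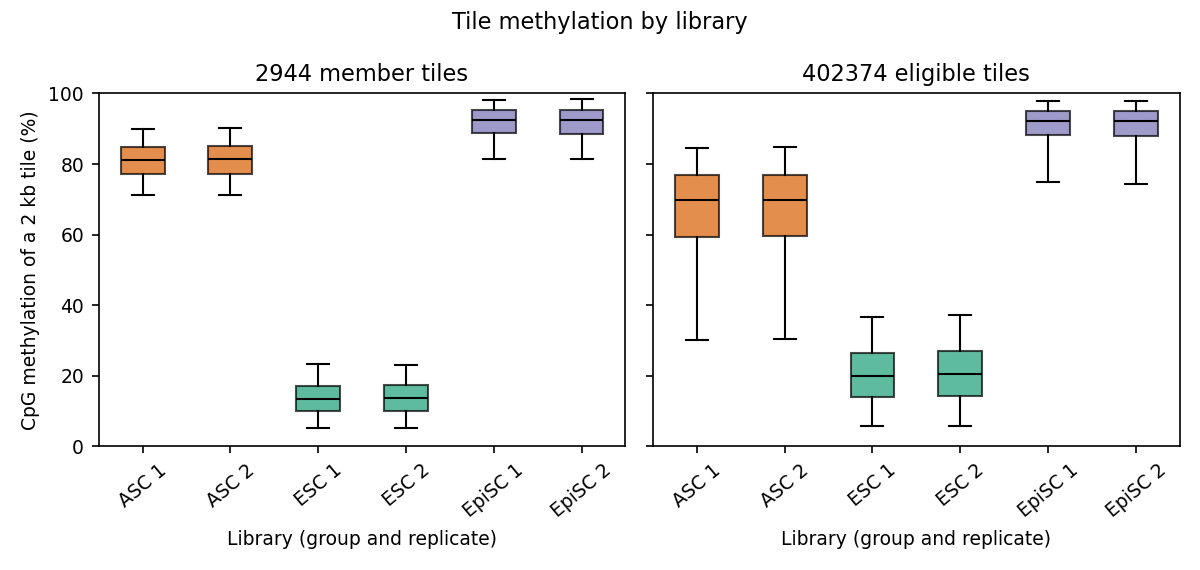
Box plots of the methylation level of 2 kb tiles (y axis, %) in each of the 6 libraries (x axis), for the 2944 members and for the 402374 eligible tiles, which include the members. Boxes span the quartiles with the median as a line, and whiskers reach the percentiles 5 and 95. The EpiSC boxes are nearly the same in both panels, with medians of 92.5% and 92.3%, whereas the ASC boxes of members sit higher and the ESC boxes lower.

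The ASC minus ESC difference of members had a median of 66.7 points and ranged from 65 to 77.9, against a median of 47.4 points over eligible tiles. Members lay close to the threshold, with an upper quartile of 68.2 points. In ESCs, 576 members (19.6%) had a mean level under 10%, against 10.96% of eligible tiles, and 219 (7.44%) had 20% or more, against 51.4%. In ASCs, 1746 members (59.3%) had a mean level of 80% or more, against 12.6% of eligible tiles, and 42 (1.43%) had 90% or more, against 0.204%. In the libraries that chose them, members thus had both higher ASC and lower ESC levels than eligible tiles. All 4 combinations of an ASC and an ESC library differed by at least 65 points in 495 members (16.8%), and the lowest difference of any pair was 46.7 points.

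Tiles near the threshold are given as examples. The member just inside it, an intergenic tile at chr8:45502001-45504000 near Sorbs2, had 85.7% and 85.9% in ASCs, 20.3% and 21.3% in ESCs, with 89.5% and 92.2% in EpiSCs. The eligible tile just outside, at chr11:105512001-105514000, lay 55266 bp from the start of March10. It had 77.2% and 82.6% in ASCs, 17.1% and 12.7% in ESCs, against 91.7% and 95.6% in EpiSCs. Both differences were 65 points after rounding.

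Replicates of members differed about as much as those of other tiles. The median absolute difference between replicates was 5.27 points in ASCs, 4.33 in ESCs and 3.31 in EpiSCs, against 5.22, 4.44 and 3.004 over eligible tiles. At the members' median of 51 observations in the shallowest library, a tile at 80% is known to between 67.1% and 88.7% (Wilson 95% interval) and a tile at 15% to between 7.69% and 27.2%. Such limits leave out everything but counting error, and observations of 1 read are not independent.

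To measure the difference in libraries that took no part in a choice, the rule was applied to replicate 1 of ASCs and ESCs alone and its tiles were measured in replicate 2. It took 11018 tiles with a median difference of 67.4 points in replicate 1. In replicate 2 the same tiles differed by a median of 53.2 points, against 46.9 over all eligible tiles. Their ASC level in replicate 2 was 74.4%, against 69.9%, and their ESC level was 20%, against 20.3%. In the held-out libraries the chosen tiles were thus higher in ASCs, while their ESC level was almost that of all eligible tiles.

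Of the 11018 tiles, 963 (8.74%) reached 65 points again in replicate 2, where 2.64% of all eligible tiles did, and 8436 (76.6%) lay above the median of all eligible tiles. These baselines were not matched for depth, and 6733 of the chosen tiles had 40 to 59 observations in their shallowest library. Within that depth class 9.76% reached 65 points again, against 4.23% of its eligible tiles, and 71.1% lay above its median. With the replicates exchanged, 10638 tiles were chosen, and their held-out median was 53.6 points against 47.1. The 963 tiles past 65 points in both replicates made up 9.05% of the choice from replicate 2. They are members by the rule itself, since the mean of both replicates then also reaches 65 points. Among tiles with at least 100 observations in every library, 691 were chosen with replicate 1, and their median in replicate 2 was 54.1 points against 45.3. There the ASC level was 75.6% against 68.4%, the ESC level was 21.1% against 20.3%, and 88.9% of the tiles lay above the median. No libraries were left over to measure the members themselves, which were chosen with the mean of both replicates.

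**Figure D2:**
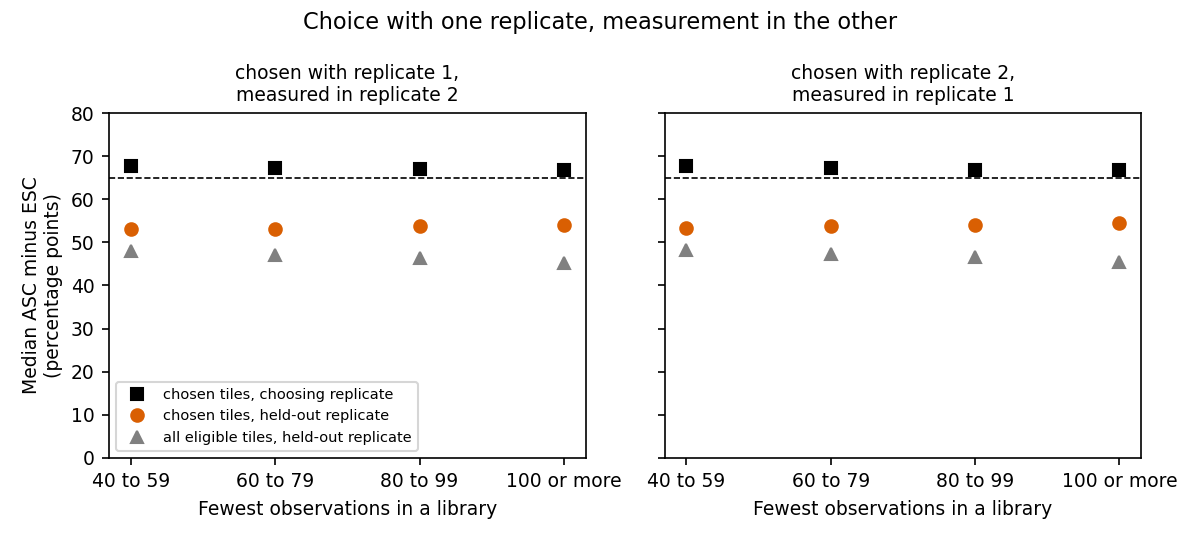
Median ASC minus ESC difference (y axis, percentage points) of tiles chosen at 65 points (dashed line) with 1 replicate, in the replicate that chose them (squares) and in the replicate that did not (circles), beside all eligible tiles (triangles), by the fewest observations in any library (x axis). In each depth class and both directions the circles lie between the squares and the triangles, at 53.1 to 54.4 points.

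Set against the primed cells, members were closer to EpiSCs than other tiles were. The mean ASC level lay a median of 10.7 points below the EpiSC level in members and 21.1 points below it in eligible tiles. On a scale with the ESC level at 0 and the EpiSC level at 1, the median position of ASCs was 0.863 in members and 0.695 in eligible tiles for which the scale was defined. Since the ASC level helped choose the members, this closeness follows in part from the rule. Both ASC libraries were below both EpiSC libraries in 2374 members (80.6%), against 96.2% of eligible tiles. Both were above in 21 members (0.713%), against 0.373% of eligible tiles.

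In the quasi-binomial model over all tiles, with a call at an adjusted p under 0.05 and at least 20 points, 115 members (3.91%) were called lower in ASCs than in EpiSCs, against a background of 54.3% of eligible tiles. The count was 213 (7.24%, against 54.1%) without ASC replicate 1, 203 (6.9%, against 54.9%) without ASC replicate 2 and 1723 (58.5%, against 91.4% of eligible tiles) with no minimum difference. A call in the other direction was made for 2 members (0.0679%), against 0.0815% of eligible tiles. Over all 445422 tiles tested, the shares were 53.5% and 0.1%. These counts share the ASC libraries with the rule and describe the members only.

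The EpiSC level set the members apart little. It was at least 80% in 2863 members (97.2%), against 92.7% of eligible tiles, and under 80% in 81. The lowest was a tile at chr1:64196001-64198000 in an intron of the long noncoding RNA gene Gm28981, with 51.2% and 50% in EpiSCs. Its levels were 79.1% and 72.2% in ASCs and 10.4% and 9.68% in ESCs, from 41 to 72 observations per library. The next was at chr3:51788001-51790000 in an intron of Maml3, a coactivator of Notch signalling, with 53.6% and 57.8% in EpiSCs. The Maml3 tile had 82.1% and 83.8% in ASCs and 17.5% and 11.4% in ESCs, from 105 to 149 observations. These were the 2 members called higher in ASCs, with ASC minus EpiSC differences of 27.3 points for Maml3 and 25.1 points for Gm28981. The call used the ASC values by which they had been selected, and they are named for a low EpiSC level, so the values are a description and the call is no independent test. In both, the ASC and EpiSC libraries did not overlap.

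Of the other 3 members with the lowest EpiSC levels, the intergenic tile at chr7:46314001-46316000 lay 18626 bp from the start of Otog. It had 67.1% and 55% in EpiSCs, against 80.4% and 79.6% in ASCs, a difference under 20 points. The intergenic tile at chr14:97758001-97760000 lay 409543 bp from the nearest protein-coding start, that of Dach1. It had 64.6% and 70.6% in EpiSCs and 83.3% and 67.7% in ASCs, and these values overlapped. The tile at chr12:5928001-5930000 in Gm32442 had 74.3% and 61.4% in EpiSCs and 86.4% and 73.2% in ASCs, which overlapped as well. At the other end, a tile in an intron of Mapkap1, which encodes a subunit of the mTORC2 kinase complex, was fully methylated in both EpiSC libraries, each with 59 observations. It had 91.9% and 82.9% in ASCs and 21.5% and 17.3% in ESCs. The other 4 members with the highest EpiSC level lay in introns of Dock1, Rgs17, Rbpms and the pseudogene Gm9973, with mean EpiSC levels from 99.2% to 99.3% and mean ASC levels from 76.1% to 87.3%.

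The widest margins were found in introns, exons and intergenic DNA alike. The member with the widest margin, at chr19:55444001-55446000 in an intron of Vti1a, a SNARE protein of vesicle transport, had 75.5% and 87.3% in ASCs and 2.38% and 4.55% in ESCs. Its EpiSC levels were 93.5% and 100%, and it had 53 to 93 observations per library. The tile at chr2:4522001-4524000 in an intron of Frmd4a, a scaffold protein of cell polarity, had 85.3% and 83.4% in ASCs, 6.95% and 5.91% in ESCs, with 95.7% and 92.4% in EpiSCs, with 132 to 220 observations. The differences of these leading tiles were 77.9 points each.

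The other 8 of the 10 widest margins ranged from 76.1 to 77.5 points. They lay in Gm5592, Arfip1, Ncbp3, Ak4 and Hivep2 and in intergenic DNA whose nearest protein-coding starts were those of Pln, Tmem236 and Zkscan2. An exon-overlapping tile of Ncbp3, a cap-binding protein, at chr11:73064001-73066000 had 79.6% and 94.8% in ASCs, 12.6% and 8.08% in ESCs, against 92.4% and 97.4% in EpiSCs. The tile at chr3:84558001-84560000 in Arfip1, which binds small GTPases of the ARF family, had 86.2% and 96.4% in ASCs, 12% and 16.7% in ESCs, with 90.9% and 86.4% in EpiSCs. In Arfip1 the ASC and EpiSC libraries overlapped. The tile at chr7:123672001-123674000, 171552 bp from the start of Zkscan2, was written entirely in soft-masked letters, which mark repeats in the reference. It had 92.2% and 87.1% in ASCs, 14.96% and 12.05% in ESCs, against 91.9% and 85.4% in EpiSCs.

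Among the 141 members with at least 100 observations in every library, the 10 widest margins included 2 receptor tyrosine kinase genes. A tile overlapping an exon of Kit, the receptor for stem cell factor, at chr5:75652001-75654000 had 78.6% and 79.2% in ASCs, 9.39% and 6.54% in ESCs, with 97.8% and 96.5% in EpiSCs. A tile overlapping an exon of Pdgfra, a receptor for platelet-derived growth factor, at chr5:75188001-75190000 had 79.2% and 78.1% in ASCs, 7.98% and 8.02% in ESCs, against 95.2% and 91.2% in EpiSCs. In both tiles the ASC libraries lay below the EpiSC libraries, as in 80.6% of members and 96.2% of eligible tiles. A tile overlapping an exon of Ttn, which encodes the muscle protein titin, at chr2:76808001-76810000 had 76.6% and 76.2% in ASCs, 6.94% and 4.20% in ESCs, with 96.97% and 97.8% in EpiSCs.

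A tile of the noncoding gene Gm40437 at chr12:70772001-70774000 had 70.6% and 79.3% in ASCs, 4.17% and 1.46% in ESCs, against 97.3% and 89.2% in EpiSCs. An intergenic tile at chr8:108998001-109000000, nearest to Zfhx3, had 88.6% and 85.9% in ASCs, 12.6% and 20.1% in ESCs, with 90.97% and 94% in EpiSCs. Of these deep tiles it lay closest to EpiSCs, with an ASC minus EpiSC difference of -5.20 points between ASC values that had been selected as high and EpiSC values that had not.

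Members were mostly single tiles. Of all members, 2880 had no member next to them, 58 formed 29 pairs, and 6 formed a single run at chr4:101446001-101458000 in Ak4. Only eligible tiles could be members, and the adjacent tile was eligible for 1524 members on the left and 1495 on the right. The limits on depth and CpG sites thus shortened the runs that could be seen. Ak4 encodes adenylate kinase 4, a mitochondrial enzyme of nucleotide metabolism, and its annotated body spans chr4:101419277-101466995 on the plus strand. Over the 6 tiles of the run, ASC libraries ranged from 64.8% to 83.5%, ESC libraries from 0% to 9.79% and EpiSC libraries from 93.6% to 99.1%. The second of these tiles, at chr4:101448001-101450000, had 79.3% and 75.8% in ASCs, 0.592% and 0.725% in ESCs, against 99.1% and 96.5% in EpiSCs. The ESC values there were 1 methylated observation of 169 and 1 of 138, with Wilson 95% upper limits of 3.28% and 3.99%. In that tile the ASC minus EpiSC difference was -20.3 points and the libraries did not overlap, which is a description, since the ASC values had chosen the tile.

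Ak4 had 18 eligible tiles, of which 12 were not members. In these 12, ESC libraries ranged from 0% to 23.1%, with medians of 5.37% and 7.85%, and both were under 10% in 7 tiles. Over all 18, ASC libraries ranged from 50% to 83.8% and EpiSC libraries from 85.6% to 99.1%. Both ASC libraries were below both EpiSC libraries in each of the 18, as in 96.2% of all eligible tiles. In the 8 eligible flanking tiles on either side of the gene, ESC medians were 22.5% and 28.0%. The 2 tiles at the annotated start, with 99 and 104 CpG sites and so outside the limit on CpG sites, were low in all cells. The first of them, at chr4:101418001-101420000, had 5.36% and 12.9% in ASCs, 1.29% and 0.847% in ESCs, with 10.1% and 11.9% in EpiSCs.

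**Figure D3:**
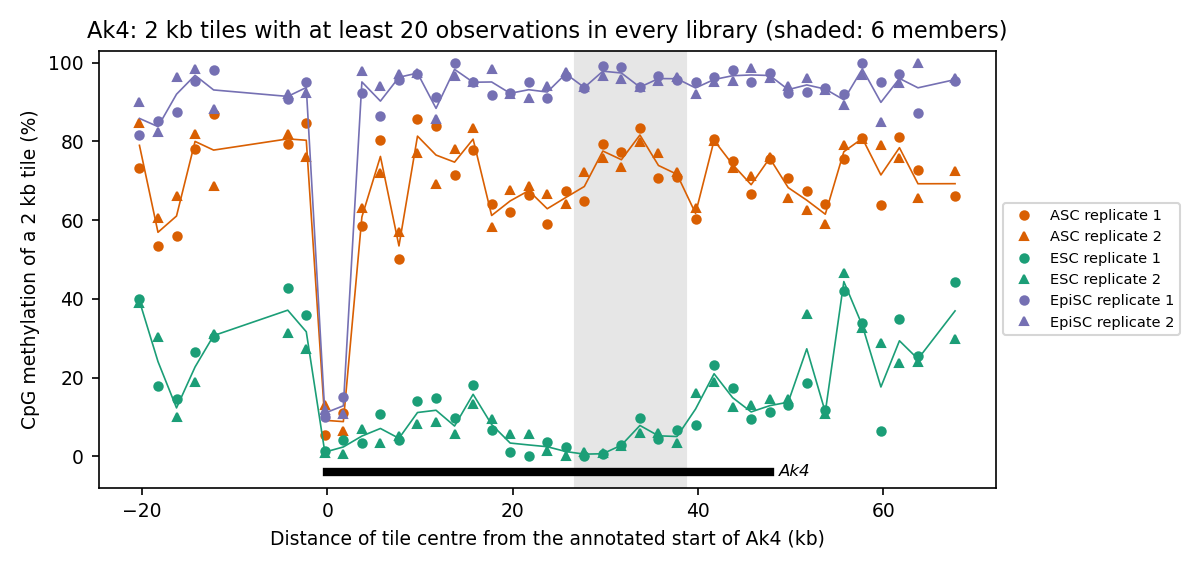
Methylation of 2 kb tiles (y axis, %) along Ak4 by distance of the tile centre from the annotated gene start (x axis, kb), with both replicates of each cell type as points and their mean as a line. The black bar is the annotated gene, the shaded stretch holds the 6 members, and tiles with fewer than 20 observations in a library are left out. ESC values stay between 0% and 23.1% over the eligible tiles of the gene body, EpiSC values start at 85.6% there, and all 3 cell types drop at the start.

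As a gene, Ak4 had the largest median ASC minus ESC difference of the 6269 protein-coding genes with at least 10 eligible tiles, 63.7 points, against a median of 46.9 over those genes. Its median ESC level was 5.09%, against 20.9%, and 15 of the 6269 genes had a lower one. Its median EpiSC level was 95.8%. This ranking was looked at after the run had been seen. It uses the same difference by which the rule chose members, and 6 of the 18 eligible tiles of Ak4 were members. The rank is therefore a description and no independent support.

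The next runs in order of margin were pairs. In Vti1a the leading tile was followed by a second member at chr19:55446001-55448000 with 86.4% and 80% in ASCs, 16.1% and 16.2% in ESCs, against 94.7% and 95.4% in EpiSCs. In Myt1l, a zinc finger factor of neurons, the tile at chr12:29856001-29858000 had 85.0% and 76.6% in ASCs, 8.89% and 7.84% in ESCs, with 93.1% and 92.3% in EpiSCs. The next Myt1l tile had 81.8% and 82.9% in ASCs, 13.5% and 10.6% in ESCs, against 86.2% and 95.8% in EpiSCs.

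Tiles around members were higher in ASCs over a long distance. The adjacent tiles, which the rule did not use for the member itself, averaged 70.2% ± 0.11 for ASCs, 19.6% ± 0.30 for ESCs and 90.4% ± 0.14 for EpiSCs (SD, n = 2 each). Tiles adjacent to any eligible tile had 65.8% ± 0.15, 20.8% ± 0.25 and 90.2% ± 0.05 (SD, n = 2 each). The ASC excess at 2 kb was larger than the spread between replicates, as the ASC libraries gave 70.1% and 70.2% beside members and 65.7% and 65.9% beside eligible tiles. That spread is between libraries and does not measure variation among tiles. Of the 3019 adjacent tiles, 68 were themselves members and were kept in the average. Neighbours come from the same libraries as the members and are not further replicates.

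At 20 kb the ASC level was 68.7% beside members and 65.2% beside eligible tiles, and at 100 kb it was 67.5% and 65.2%. The ESC level did not differ in this way at 20 kb, where it was 20.5% ± 0.07 beside members and 20.5% ± 0.24 beside eligible tiles (SD, n = 2 each). Members made up 2.25% of the tiles at 2 kb from a member and 1.02% of those at 100 kb, against 0.577% and 0.603% for eligible tiles. Neighbours of members, like tiles chosen with 1 replicate and measured in the other, stood out by a higher ASC level more than by a lower ESC level. The baseline was not matched for location, and members lay farther from protein-coding starts than eligible tiles. The median ASC level of eligible tiles was 59.8% within 1000 bp of a start and 73.5% beyond 200000 bp. The part of location in the ASC excess was not tested.

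**Figure D4:**
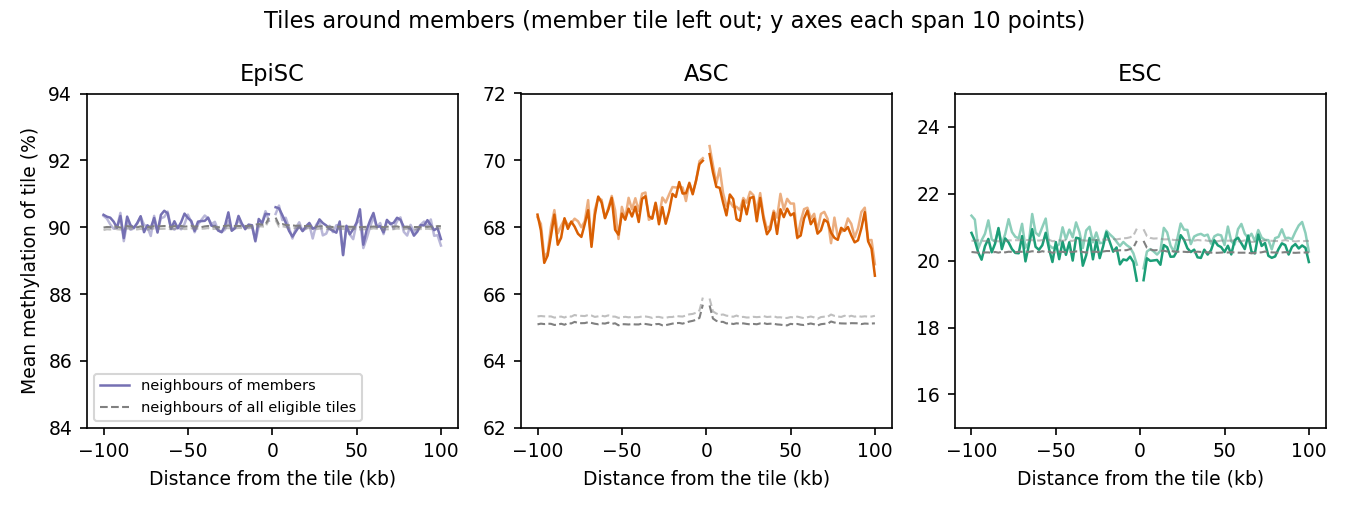
Mean methylation (y axes, %, each spanning 10 points) of tiles at a given distance (x axis, kb) from members (solid, coloured) and from any eligible tile (dashed, grey), with replicate 2 drawn paler and the tile itself left out. The ASC curves of members are highest at 2 kb to the right of the member, at 70.2% and 70.4%, and stay above the grey curves to 100 kb, and the ESC and EpiSC curves run near the grey ones beyond the nearest tiles.

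Members were spread over all 19 autosomes, from 0.539% of eligible tiles on chromosome 17 to 0.934% on chromosome 8. Introns of protein-coding genes held 1063 members (36.1%, against 31.4% of eligible tiles) and intergenic DNA held 1186 (40.3%, against 34.9%). Exon-overlapping tiles away from starts held 366 (12.4%, against 19.7%), and 250 lay in other genes only (8.49%, against 8.07%). Within 1000 bp of a protein-coding start there were 79 members (2.68%, against 5.88%). The median EpiSC level of members was between 91.5% and 93.2% in these 5 classes, so that members near starts and in intergenic DNA were both highly methylated in the primed cells. This was not particular to members, as all eligible tiles within 1000 bp of a start had a median EpiSC level of 90.3%.

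Members were poorer in CpG sites and lay farther from protein-coding starts than eligible tiles. Their median number of CpG sites was 19, against 22, their median GC content 44%, against 45.55%, and their median distance to a protein-coding start 54226 bp, against 26091 bp. The share of eligible tiles that were members fell from 1.69% at 10 or fewer CpG sites to 0.205% at 31 to 40. It fell from 1.55% under 40% GC to 0.210% at 52% GC or more. By distance, it was 0.334% within 1000 bp of a start and 1.52% beyond 200000 bp. The median ASC minus ESC difference of eligible tiles moved less. It was 48.7 points at 10 or fewer CpG sites and 44.5 at 31 to 40. Under 40% GC it was 48.2 points, and at 52% GC or more it was 45.0. The shares by CpG sites and by GC content were not separated from depth. Soft-masked sequence made up a median of 19.95% of members and 20.8% of eligible tiles, and member shares ran from 0.612% to 0.794% over classes of this property.

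The share of members also moved with depth. The shallowest library of a member had a median of 51 observations, against 68, and 2017 members (68.5%) fell in the class of 40 to 59 observations, which held 38.7% of eligible tiles. Member shares were 1.29% in that class, 0.581% at 60 to 79, 0.334% at 80 to 99, 0.185% at 100 to 149 and 0.0932% at 150 or more. The gradient with distance to a start was present within depth classes. At 40 to 59 observations it ran from 0.784% within 10000 bp to 1.72% beyond 50000 bp, and at 100 or more from 0.0784% to 0.312%. The median difference of eligible tiles was 43.3 points within 10000 bp of a start and 48.3 beyond 50000 bp at 100 or more observations.

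**Figure D5:**
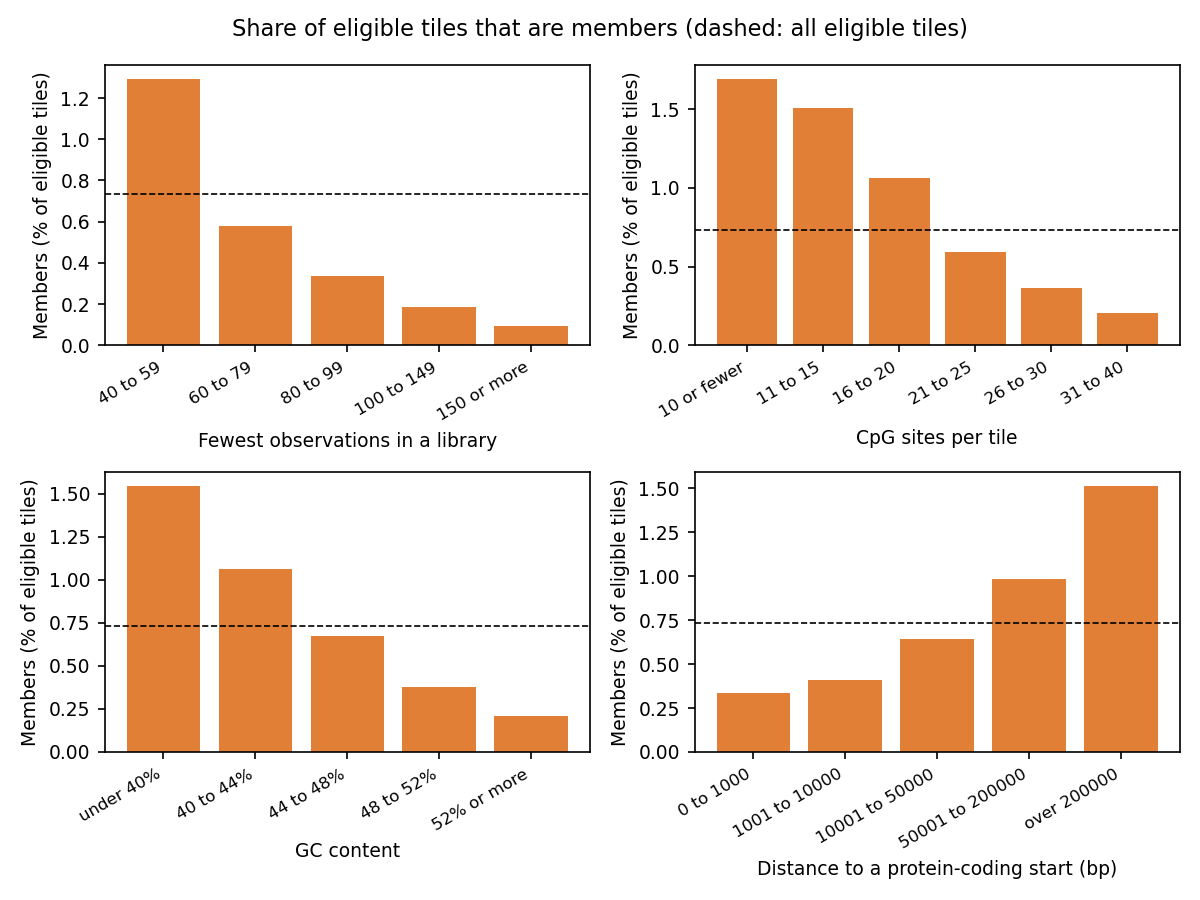
Members as a percentage of eligible tiles (y axes, each from 0) by the fewest observations in a library, the number of CpG sites, the GC content and the distance to the nearest protein-coding start (x axes). Dashed lines mark the 0.732% over all eligible tiles, and the share falls with depth, CpG sites and GC content and climbs with distance, from 0.334% to 1.52%.

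Starts were thus rarely members, and those that were held 12 to 32 CpG sites per tile in the 5 with the widest margins. Besides the Ak4 tile, which lay 778 bp from an annotated internal start, these were tiles at 1700025F22Rik, Dennd6a, Ms4a4c and Babam1. The tile holding the start of 1700025F22Rik, at chr19:11158001-11160000, had 79.03% and 88.7% in ASCs, 8.33% and 7.27% in ESCs, with 81.0% and 97.5% in EpiSCs. The tile at chr14:26574001-26576000 beside Dennd6a, an activator of Rab GTPases, had 85.9% and 83.3% in ASCs, 13.3% and 11.1% in ESCs, against 94.3% and 85.7% in EpiSCs. At Ms4a4c, a membrane protein of immune cells, the tile at chr19:11404001-11406000 had 83.0% and 87.1% in ASCs, 13.0% and 12.8% in ESCs, with 93.8% and 83.0% in EpiSCs. At Babam1, a member of a BRCA1-associated complex, the tile at chr8:71400001-71402000 had 73.6% and 91.5% in ASCs, 15% and 6.67% in ESCs, against 98.0% and 100% in EpiSCs.

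A total of 1057 protein-coding genes held a member in their body, 801 of them 1, 149 of them 2 and 107 of them 3 or more. The 5 with the most members had long annotated bodies. Asic2, an acid-sensing ion channel, had 11 members of 325 eligible tiles, and Fgfr2, a receptor for fibroblast growth factors, had 10 of 1024, over an annotated body of 2960900 bp. Tiles were counted over the whole annotated span, including any that lie in other genes inside it. The count for so long a span may therefore not belong to Fgfr2 itself. The formin gene Fhod3 had 9 of 124, the adhesion molecule gene Sdk1 9 of 279 and the synapsin gene Syn3 8 of 147. The last of these shared its count with Ptprt and Dab1, with 8 of 148 and 8 of 235. As a share of eligible tiles, these 7 annotated bodies ran from 0.977% in the span of Fgfr2 to 7.26% in Fhod3, against 33.3% in Ak4 and 0.732% of all eligible tiles. Their median differences ran from 48.1 to 52.9 points, and their median EpiSC levels from 90.7% to 93.8%.

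Genes of pluripotency were absent from the members. No member lay in or within 1000 bp of the naive pluripotency genes, with 142 eligible tiles, of the shared pluripotency genes, with 25, or of the genes of primed epiblast and early mesoderm, with 67. Median differences were 32.1, 16.9 and 41.2 points in these lists, against 47.4 over eligible tiles. In Esrrb, an orphan nuclear receptor of the naive state, 73 eligible tiles had a median ESC level of 11.6%, ASC level of 55.9% and EpiSC level of 93.2%, and the highest difference was 58.3 points. The label check at Zfp42, a marker of naive cells whose expression is lost in EpiSCs, gave median levels over 3 eligible tiles of 1.74% in ESCs, 4.04% in ASCs and 96.9% in EpiSCs. In Wnt5a, which encodes a Wnt ligand, the highest of 5 tiles reached 63.6 points. These lists are short beside a share of 0.732%, so that the absence of members is no result about the lists.

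In the genes of the methylation machinery, 1 of 231 eligible tiles was a member (0.433%, against 0.732% of all eligible tiles). It lay in an intron of Tet3, which oxidises methylcytosine, at chr6:83430001-83432000, with 81.4% and 87.0% in ASCs, 10.3% and 15.5% in ESCs, with 95% and 93.6% in EpiSCs. Germline genes had 2 members of 92 tiles (2.17%, against 0.732%). With so few members, neither count is a result about its list. The member in an intron of Ddx4, an RNA helicase of germ cells, at chr13:112646001-112648000 had 68.0% and 74.6% in ASCs, 2.13% and 9.09% in ESCs, against 93.3% and 95.3% in EpiSCs. The member in Mov10l1, a helicase of the piRNA pathway, at chr15:89010001-89012000 had 76.1% and 71.01% in ASCs, 1.75% and 14.8% in ESCs, with 79.5% and 80.4% in EpiSCs.

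Imprinted genes had 4 members of 377 tiles (1.06%, against 0.732% of all eligible tiles), with 1 each in Kcnq1 and Grb10 and 2 in Rasgrf1. This count too is small and is no result about the list. In Grb10, a growth-restraining adaptor protein, the tile at chr11:11982001-11984000 had 81.6% and 81.0% in ASCs, 7.50% and 13.3% in ESCs, against 94.9% and 94.1% in EpiSCs. In Rasgrf1, an exchange factor for Ras, the tile at chr9:89916001-89918000 had 84.3% and 82.0% in ASCs, 5.17% and 20% in ESCs, with 91.0% and 92.3% in EpiSCs, and the tile at chr9:89954001-89956000 had 73.9% and 84.6%, 14.4% and 12.4%, and 88.1% and 85.3% in the same order. In Kcnq1, a potassium channel gene, the tile at chr7:143348001-143350000 had 88.6% and 79.6% in ASCs, 15.8% and 21.8% in ESCs, against 95.8% and 94.1% in EpiSCs. All of these levels are averages over both parental alleles, which were not separated.

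Members made up 0.732% of all eligible tiles. Of the gene families, olfactory receptors had 9 members of 493 eligible tiles (1.83%), protocadherins 3 of 161 (1.86%), vomeronasal receptors 1 of 114 (0.877%), Zfp zinc finger genes 11 of 2806 (0.392%) and Hox genes 0 of 64. Median differences were 50.8 points in olfactory receptors, 42.7 in protocadherins, 49.2 in vomeronasal receptors, 45.3 in Zfp genes and 23.2 in Hox genes, against 47.4 over all eligible tiles. With so few members in each family, nothing particular to a family can be read from these counts. Members of these families have similar sequences, and the placing of reads among copies was not tested.

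Single CpG sites were also sorted by their reads. Members held 57324 listed sites, of which 16438 to 21543 had at least 5 reads in a given library. Of such sites, 43.9% and 44.1% had no methylated read in the ESC libraries, against 33.4% and 33.2% in eligible tiles. In ASCs, 32.0% and 32.9% had only methylated reads, against 17.2% and 17.6%, and 67.9% and 66.9% were intermediate, against 77.6% and 77.4%. In EpiSCs, 63.3% and 63.4% had only methylated reads, against 60.9% and 61.4%. Even in members, most ASC sites were therefore mixed between methylated and unmethylated reads, whereas most EpiSC sites were not, at a depth where few reads decide the class. Whether sites were more mixed than the level of each cell type alone would give was not tested.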

How the data were processed

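DNA methylation was measured in 6 PBAT libraries, 2 each of ASCs, ESCs and EpiSCs. According to the methods of the study, the authors trimmed the reads with Trim Galore, aligned them to GRCm38 (mm10) with Bismark 0.16.3 in its PBAT mode, removed PCR duplicates, and used MethPipe (version not given in the sources used here) to merge both strands of each CpG. The deposited tables give the methylation level of each CpG as a fraction of its reads, and the coverage as a raw count of reads, per library and without normalization. The labels and the methods differ on the read length, which is not used here.

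Methylated reads were recovered as fraction times coverage and summed over tiles. The level of a tile is methylated over all observations, and the group level is the mean of the 2 libraries. Tiles with few CpG sites gather few observations at a given coverage, and their levels have more counting error. The members and gene lists were chosen with earlier results of these data known. Named tiles were the 10 widest margins, the 10 widest with at least 100 observations, the 5 widest within 1000 bp of a protein-coding start, the 3 longest runs, the 5 members with the lowest and the 5 with the highest EpiSC level, tiles at the threshold, members in listed genes, and the 5 genes with the most members. Some of these tiles are not reported here. A logistic model of the observations with a term for group and a Pearson dispersion (quasi-binomial) was fitted to all 6 libraries over 445422 tiles. The dispersion was moderated across tiles (limma 3.58.1, squeezeVar, R 4.3.3). ASCs and EpiSCs were compared by F test, two-sided, and p-values were adjusted over all tiles by the method of Benjamini and Hochberg. The fit was tested on simulated data. Tiles were annotated with GENCODE M21, soft-masked letters come from the GRCm38 sequence, and the printed sequences were read from the RefSeq GRCm38 assembly. Tables were handled with Python 3.11.15. Alternatives were other depth minimums, thresholds and tile positions, unweighted levels, other tests and leaving out each library.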

Additional observations from a re-analysis of the deposited data

How the results depend on the processing

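The number of members depended on the rule's settings. It was 11739 of 664061 eligible tiles at a minimum of 20 observations and 141 of 84681 at 100 observations, against 2944 of 402374. Among the same 402374 tiles it was 4544 with unweighted levels, 17993 at 60 points and 307 at 70 points. Without 1 of the ASC or ESC replicates it was 5908 to 7213. Each of the latter sets held 69.3% to 72.2% of the members counted as shared tiles. The number was 2972 of 441118 without the limit on CpG sites and 2945 of 402522 with tiles shifted by 1000 bp. Of those 2945, 744 overlapped a member. The cause was not tested.

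The median EpiSC level of members, 92.3% as a mean of replicates, was 91.5% at 20 observations, 93.6% at 100, 92.4% with shifted tiles, 92.4% at 60 points, 92.7% at 70 points, and 92.3% to 92.6% with 1 library left out. The held-out difference of 53.2 points was 53.6 with the replicates exchanged, 54.1 at 100 observations and 52.5 at 60 points.

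The count of members lower in ASCs than in EpiSCs was 1723 with no minimum difference (58.5%, against 91.4% of eligible tiles), 9 at 100 observations (6.38%, against 59.8%), and 115 to 213 with 1 library left out (3.91% to 7.24%, against 54.1% to 54.9%). It was highest without ASC replicate 1, at 213, and without ASC replicate 2 it was 203. The count in the other direction was 5 with no minimum difference (0.17%, against 0.194%), 1 at 100 observations (0.709%, against 0.118%) and 2 to 4 with 1 library left out, the 4 being without EpiSC replicate 1. A group left with 1 library was assumed to vary like the others, so a change in these counts is no result about members. Among the fits with 1 library left out, the share of eligible tiles called higher in ASCs was also largest without EpiSC replicate 1. Fisher's exact test, limma on M values and a dispersion of at least 1 each gave 115 and 2, the minimum difference of 20 points being the stricter condition. The fit with the replicate number as a block also gave 115 and 2. Same-numbered libraries did not deviate together, with correlations of 0.00247, -0.00570 and -0.000217, so the numbers were not taken as pairs.

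With 40 observations, a tile at 80% has Wilson 95% limits of 65.2% and 89.5%, which bounds any statement on a single tile. Members had a median of 51 observations in their shallowest library, and with 2 libraries per group no permutation test of library medians between 2 groups can pass 0.05.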

Other observations

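Chromosome X lay outside the rule. Under the same limits it had 3344 eligible tiles, of which 13 (0.389%) reached 65 points, against 0.732% of eligible autosomal tiles. The median ASC minus ESC difference was 41.3 points, against 47.4 on autosomes. Median levels there were 66.7% and 66.9% in ASCs, 21.4% and 22.0% in ESCs, with 89.4% and 89.6% in EpiSCs, and the shallowest library of a tile had a median of 50 observations, against 68 on autosomes. Depth and level thus both differed from those of autosomes, as did coverage per CpG, which was lowest in ESCs (37.0% and 38.3% of that of autosomes) and highest in EpiSCs (63.4% and 62.1%), and the part of coverage in the difference was not tested.

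After Ak4, the protein-coding genes with the largest median ASC minus ESC difference over at least 10 eligible tiles were Csf2rb, a subunit of cytokine receptors, at 58.97 points, Ppp1r14c, an inhibitor of protein phosphatase, at 58.5, Adamtsl2, a protein of the extracellular matrix, at 58.5, and Ikzf1, a zinc finger factor of lymphocytes, at 58.1. Each held 1 member. Their median ESC levels were 10.2%, 15.4%, 16.1% and 11.4%, against 20.9% over all such genes, and their median EpiSC levels 83.97%, 92.3%, 91.6% and 89.8%. These genes were chosen after their values were seen.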
